A study of Homo sapiens with 3 samples.

Results

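The genes described here are 47 genes of the machinery that brings secretory and membrane proteins into the endoplasmic reticulum (ER), folds them, attaches N-linked glycans and watches over the outcome. They are a list of symbols named by function, by a rule that uses no measured value, and were found through their Ensembl identifiers among the 19869 genes of the expression table. All 47 were found, and all 47 passed the filter of a mean of at least 1 FPKM, a count of fragments divided by transcript length and library size. RNA sequencing was done on Hep3B cells, a line from a human hepatocellular carcinoma, with 1 library in each of 3 groups. The first group received a pcDNA3.1 plasmid that encodes HKR3, an older name of the telomere-binding zinc finger protein ZBTB48. The second received a small interfering RNA against TERT, the catalytic subunit of telomerase. The control is titled NT-Empty, and its treatment label names only Fugene, the transfection reagent, and the sources used here do not say which nucleic acid these cells received. The protocol given for all 3 groups is transfection with Fugene HD followed by fresh medium; the time of harvest is not stated in it. Each group is 1 library of 1 cell line, so what holds here is not shown for other hepatoma lines.

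Secretory proteins carry a signal sequence that is caught by the signal recognition particle as it leaves the ribosome, handed to a receptor on the ER membrane and threaded through the Sec61 channel. Inside, signal peptidase removes the signal, oligosaccharyltransferase adds the glycan, and chaperones and disulfide enzymes fold the chain. Proteins that fail are returned to the cytosol and degraded, and the unfolded protein response adjusts the whole system through the sensors encoded by ERN1, ATF6 and EIF2AK3. Hepatocytes make most plasma proteins and depend on this machinery heavily.

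Summed over all genes, FPKM came to 535516 in the HKR3 library, 579410 in the library labelled siTERT and 596536 in the control. Depth was estimated at between 1.04e+07 and 1.14e+07 fragments per library, by taking a group of weak genes to hold 1 fragment each. ZBTB48 was at 2842 FPKM in HKR3 cells against 4.91 FPKM in control cells. TERT was at 5.37 FPKM in siTERT-labelled cells against 4.69 FPKM in control cells, so it was not lower there, and that library is called by its label throughout. All 8 hepatocyte and hepatoma markers were present, ALB and AFP highest, and their sum was 7616 FPKM in HKR3, 10874 FPKM in siTERT-labelled and 10993 FPKM in control cells. Markers of other cells were listed at 0 in every library (PTPRC of leukocytes, CDH5 and VWF of endothelium) or summed to at most 0.238 FPKM (4 genes of stroma), except the myeloid genes CD14 and LYZ. LYZ was at 210.3 FPKM in HKR3, 391.9 FPKM in siTERT-labelled and 392.5 FPKM in control cells, and CD14 at 3.13 FPKM in HKR3, 4.82 FPKM in siTERT-labelled and 6.20 FPKM in control cells. The part of these shifts in the differences below was not tested. With 1 library per group no difference can be set against a spread between replicates, so no p-value or error is given and differences are sorted by size alone. The HKR3 library and the library labelled siTERT are each compared with the same control library, so their differences from it are not independent.

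The 47 genes were strongly expressed as a group. Their FPKM summed to 6707 in HKR3, 7239 in siTERT-labelled and 7460 in control cells, which was 1.25% of the sum over all genes in each of the 3 libraries. The median gene of the list was at 102 FPKM in HKR3, 105 FPKM in siTERT-labelled and 105 FPKM in control cells. In the control, 25 of the 47 lay above percentile 90 of the 10974 genes tested, and 22 were above 100 FPKM in every library. The highest in the control was CALR at 708 FPKM, followed by P4HB at 589.7 FPKM and XBP1 at 507 FPKM. The lowest was ERN1, encoding the stress sensor IRE1, at 3.06 FPKM.

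**Figure D1:**
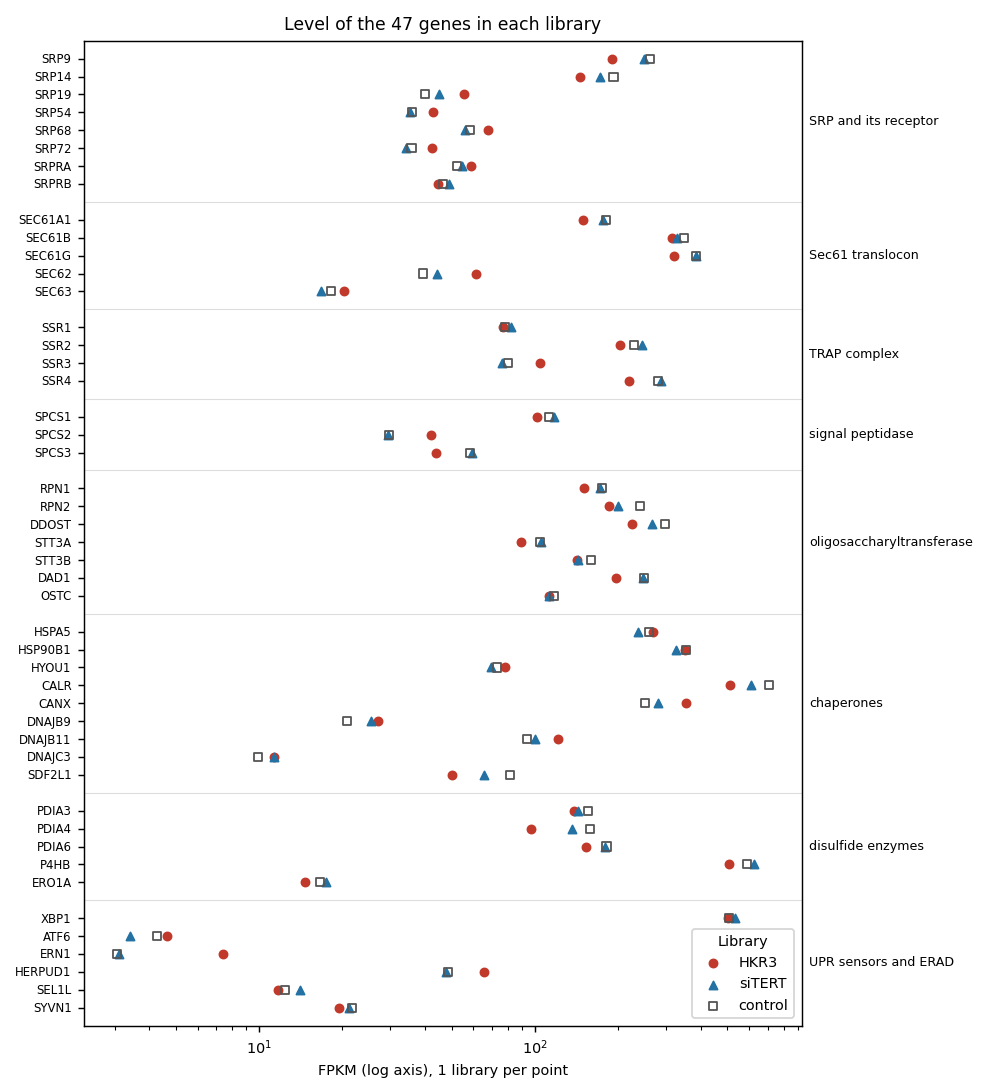
FPKM of each of the 47 genes (log axis) in the HKR3 library (red circles), the library labelled siTERT (blue triangles) and the control (open grey squares), 1 library per point, in blocks by role. The levels span from ERN1, at 3.06 FPKM in the control, to CALR, at 708 FPKM, and the 3 points of most genes lie close together.

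In HKR3-overexpressing cells most of this machinery was close to the control: 28 of 47 genes, or 59.6%, lay within 1.25-fold, beside 45.4% of all genes tested. Of the 10974 genes tested, 4625 had a mean from 1 to 10 FPKM, where counting error is wider, against 2 of the 47. No share of all genes, here or below, was matched for level. In bulk RNA, fewer cells that express a gene and less of its RNA per cell cannot be told apart. ERN1 was the 1 gene of 47 at least 2-fold higher on the log2(FPKM + 1) scale, which is 2.13% of the list against 5.52% of all genes tested. None of the 47 was at least 2-fold lower, against 2.52% of all genes. By a looser line of 1.5-fold, 2 of 47 were higher (ERN1 and the translocation gene SEC62) against 15.3% of all genes. As many, 2 of 47, were at least 1.5-fold lower (the disulfide isomerase PDIA4 and the chaperone partner SDF2L1) against 12.7% of all genes. The median log2 difference of the list was -0.08, beside -0.02 over all genes tested, and 18 genes were above 0 and 29 below. Of all genes tested, 48.6% were above 0 and 51.4% below.

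The position of 0 rests on how the libraries are scaled. When every library was brought to the same FPKM sum, the median difference of all genes moved by 0.14 to 0.12, and that of the 47 genes to 0.07. Then 5 of the 47 were at least 1.5-fold higher (ERN1, SEC62, SPCS2, CANX and SRP19), against 2429 of 10974 genes tested, and 0 were at least 1.5-fold lower, against 949. Between the scalings 9 of the 47 changed sign: SRPRB, SEC61B, SSR1, SPCS1, OSTC, HSP90B1, XBP1, SEL1L and SYVN1. Differences below are on the deposited scale unless stated, and no direction is read from the values of those 9.

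**Figure D2:**
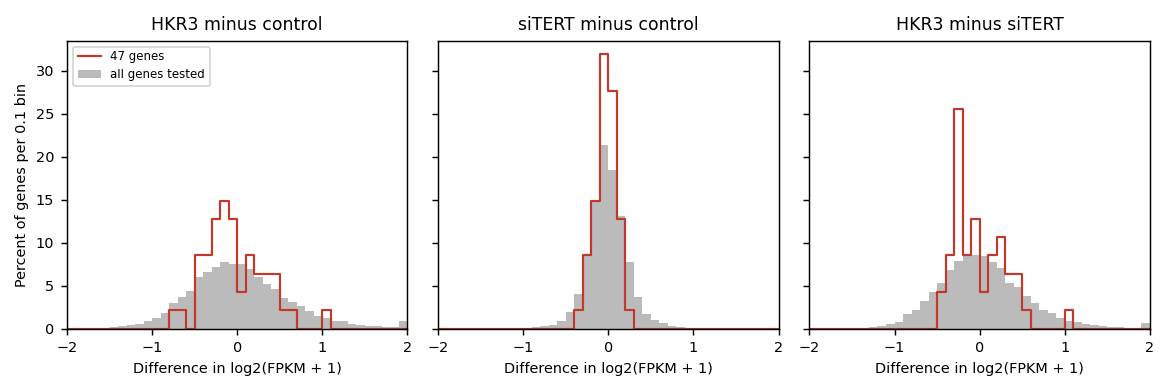
Share of genes per bin of 0.1 (y axis, percent) by the difference in log2(FPKM + 1) (x axis) for the 47 genes (red line) and all genes tested (grey bars), in 3 comparisons. Values past 2 in either direction are drawn in the outermost bins. In HKR3 minus control the interquartile range of the 47 genes is -0.25 to 0.20, against -0.36 to 0.36 for all genes.

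The signal recognition particle split along its structure. SRP9 and SRP14 form the pair at the end of the particle that slows translation. SRP9 was at 190.4 FPKM in HKR3, 249 FPKM in siTERT-labelled and 262 FPKM in control cells, a log2 difference of -0.46 for HKR3 minus control. SRP14 was at 146 FPKM in HKR3, 173 FPKM in siTERT-labelled and 193 FPKM in control cells, a difference of -0.40. Both were lowest in the HKR3 library, also with every library at the same FPKM sum, where the differences were -0.30 and -0.25. The 4 proteins of the other end, which binds the signal sequence, were all highest in the HKR3 library. SRP54, the GTPase that holds the signal sequence, was at 42.7 FPKM in HKR3, 35.3 FPKM in siTERT-labelled and 35.97 FPKM in control cells. On shortest coding transcripts of 162 bases for SRP54 and 165 for SRP68, few fragments were estimated. SRP54 had 78 in HKR3, 65 in siTERT-labelled and 61 in control cells, and SRP68 had 126, 105 and 100. A longer transcript would give more, and no counting interval was computed for these genes. SRP19, which helps to load SRP54 onto the particle's RNA, was at 55.5 FPKM in HKR3, 45.1 FPKM in siTERT-labelled and 40.2 FPKM in control cells, a difference of 0.46. SRP68 and SRP72, which bind each other, were at 67.8 FPKM in HKR3, 55.7 FPKM in siTERT-labelled and 58.1 FPKM in control cells for SRP68, and at 42.4 FPKM in HKR3, 34.2 FPKM in siTERT-labelled and 35.8 FPKM in control cells for SRP72. Their HKR3 minus control differences were 0.22 and 0.24, and the level of SRP68 over SRP72 was 1.60 in HKR3, 1.63 in siTERT-labelled and 1.62 in control cells, so the pair kept its ratio. Of the receptor on the ER membrane, SRPRA, which binds SRP54, was at 58.98 FPKM in HKR3, 54.4 FPKM in siTERT-labelled and 52.1 FPKM in control cells, and SRPRB, its membrane anchor, at 44.6 FPKM in HKR3, 48.9 FPKM in siTERT-labelled and 46.6 FPKM in control cells. Over the 8 genes the median difference was 0.20, with 5 above 0 and 0 past 1.5-fold; at the same FPKM sum it was 0.35, with 6 above 0 and SRP19 past 1.5-fold. Of the sequence of SRP19, 26.3% also occurs in transcripts of other genes in units of 31 bases, the largest share among the 47. For SRP9 the share was 13.3%. Part of the values of SRP19 and SRP9 may belong to those other genes.

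The channel and its helpers also divided. SEC61A1, the pore, was at 149 FPKM in HKR3, 177 FPKM in siTERT-labelled and 182 FPKM in control cells, a difference of -0.28 in HKR3 minus control. The small subunits SEC61B and SEC61G were at 315 FPKM in HKR3, 329 FPKM in siTERT-labelled and 349 FPKM in control cells for SEC61B, and at 320.3 FPKM in HKR3, 384 FPKM in siTERT-labelled and 383 FPKM in control cells for SEC61G, with differences of -0.15 as deposited and 0.01 at the same FPKM sum for SEC61B, and of -0.26 and -0.10 for SEC61G. SEC62, which with SEC63 helps the entry of short chains and of those with weak signals, stood out from them at 61.5 FPKM in HKR3, 44.2 FPKM in siTERT-labelled and 39.3 FPKM in control cells. Its difference of 0.63 exceeded that of 86.3% of all genes tested, and the HKR3 value lay above both others. SEC63, a membrane protein that recruits BiP to the channel, was at 20.3 FPKM in HKR3, 16.7 FPKM in siTERT-labelled and 18.3 FPKM in control cells, a difference of 0.15. Over the 5 genes the median was -0.15 as deposited and 0.01 at the same FPKM sum. The level of SEC61A1 over SEC62 was 2.43 in HKR3 cells, 4.02 in siTERT-labelled cells and 4.62 in control cells.

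The TRAP complex sits beside the channel and assists certain signal sequences. Of its 4 subunits, SSR3 was at 105 FPKM in HKR3, 76.4 FPKM in siTERT-labelled and 80.2 FPKM in control cells, a difference of 0.38 in HKR3 minus control, and SSR4 at 219 FPKM in HKR3, 288 FPKM in siTERT-labelled and 279 FPKM in control cells, a difference of -0.35. These 2 lay on opposite sides of the control under either scaling. SSR1 was at 77.02 FPKM in HKR3, 82.1 FPKM in siTERT-labelled and 78.02 FPKM in control cells, and SSR2 was at 205 FPKM in HKR3, 245 FPKM in siTERT-labelled and 229 FPKM in control cells; the median of the complex was -0.09 as deposited and 0.07 at the same FPKM sum. In the accessory part of signal peptidase the genes also lay on opposite sides, with a median of -0.14 as deposited and 0.02 at the same FPKM sum. SPCS2 was at 42.2 FPKM in HKR3, 29.3 FPKM in siTERT-labelled and 29.6 FPKM in control cells, a difference of 0.50, while SPCS3, whose yeast counterpart the enzyme cannot do without, was at 43.8 FPKM in HKR3, 59.3 FPKM in siTERT-labelled and 58.2 FPKM in control cells, a difference of -0.40. The level of SPCS2 over SPCS3 was 0.965 in HKR3 cells, against 0.495 in siTERT-labelled and 0.508 in control cells. SPCS1 was at 102 FPKM in HKR3, 118 FPKM in siTERT-labelled and 112 FPKM in control cells. SPCS2 shares 18.5% of its sequence with other genes, mostly with the pseudogene SPCS2P4, which may add to its value.

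**Figure D3:**
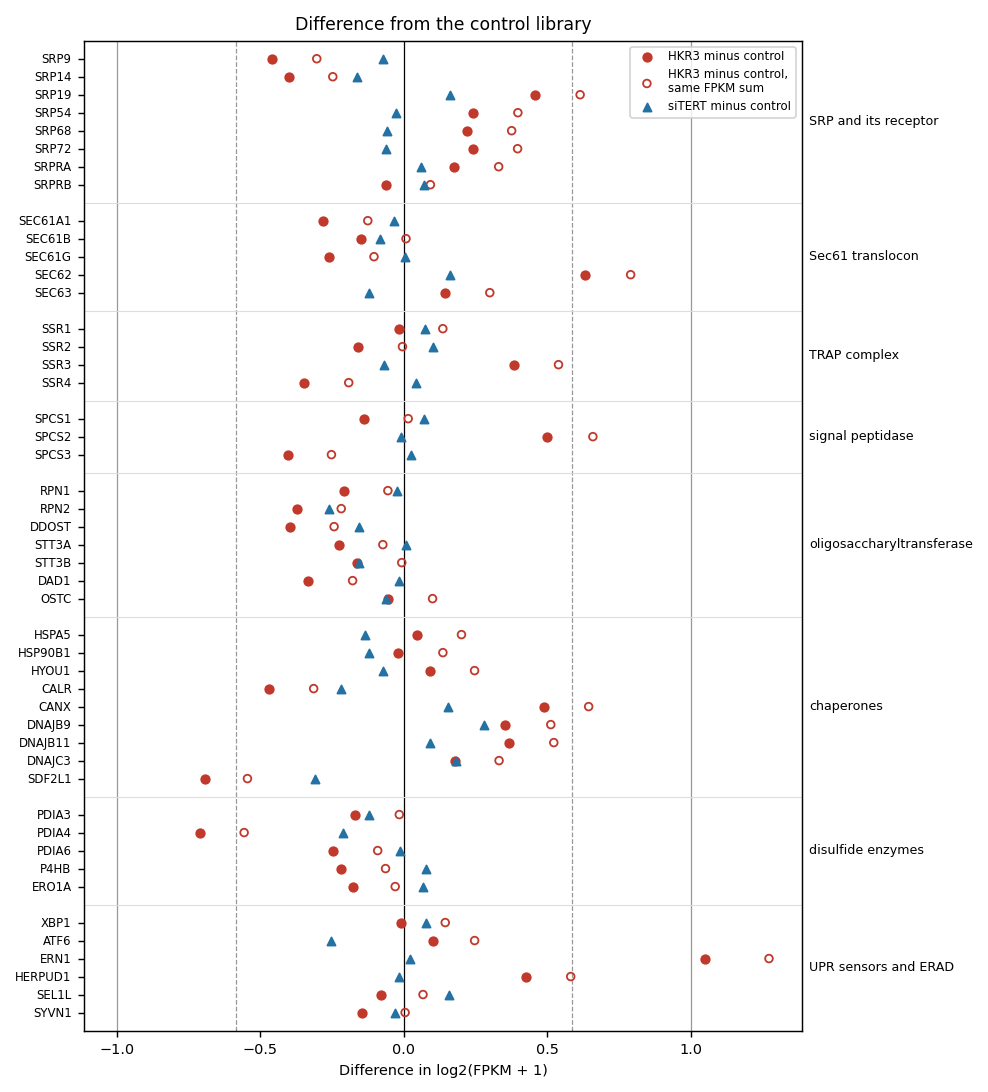
Difference in log2(FPKM + 1) from the control (x axis) for each of the 47 genes, in blocks by role: HKR3 minus control as deposited (filled red circles) and with every library at the same FPKM sum (open red circles), and siTERT minus control (blue triangles). Dashed lines mark 1.5-fold and solid grey lines 2-fold; ERN1 is the 1 gene past the 2-fold line, and the triangles stay between -0.31 and 0.28.

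Oligosaccharyltransferase, the enzyme that moves the finished glycan onto asparagine, has 7 subunits in the list. As deposited all 7 were below the control in the HKR3 library, between -0.40 and -0.05 with a median of -0.23, while at the same FPKM sum OSTC was above it at 0.10, STT3B was at -0.0070 and the median was -0.07. None reached 1.5-fold. DDOST, a non-catalytic subunit that stabilises the complex, was at 225 FPKM in HKR3, 266 FPKM in siTERT-labelled and 297 FPKM in control cells. RPN2, another structural subunit, was at 185 FPKM in HKR3, 200.3 FPKM in siTERT-labelled and 240.4 FPKM in control cells, and DAD1, a small subunit whose loss in hamster cells causes apoptosis, was at 198 FPKM in HKR3, 246 FPKM in siTERT-labelled and 249.6 FPKM in control cells. RPN1, a large membrane subunit, was at 152 FPKM in HKR3, 173 FPKM in siTERT-labelled and 176 FPKM in control cells. Of the 2 alternative catalytic subunits, STT3A, which works beside the channel, was at 89.3 FPKM in HKR3, 105 FPKM in siTERT-labelled and 105 FPKM in control cells. STT3B, which also acts on chains that STT3A skipped, was at 143 FPKM in HKR3, 144 FPKM in siTERT-labelled and 160.01 FPKM in control cells. STT3A over STT3B was 0.625 in HKR3, 0.733 in siTERT-labelled and 0.654 in control cells. OSTC, found with STT3A at the channel, was at 113 FPKM in HKR3, 112 FPKM in siTERT-labelled and 117 FPKM in control cells.

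Among the 9 chaperones, 6 were above 0 with a median of 0.09 as deposited, and 7 with a median of 0.25 at the same FPKM sum. The most abundant ATP-driven chaperones were close to the control and several others were not. HSPA5, encoding the ER form of HSP70 known as BiP, was at 269 FPKM in HKR3, 237 FPKM in siTERT-labelled and 260.4 FPKM in control cells, a difference of 0.05 in HKR3 minus control. HSP90B1, the ER form of HSP90, was at 349.7 FPKM in HKR3, 325 FPKM in siTERT-labelled and 354 FPKM in control cells, and HYOU1, a nucleotide exchange factor of BiP, was at 77.9 FPKM in HKR3, 69.3 FPKM in siTERT-labelled and 73.02 FPKM in control cells. These 3 genes, whose products are often read for ER stress, stayed within a log2 difference of 0.09 of the control on the deposited scale and within 0.25 at the same FPKM sum. Others of the list moved more and in both directions, with HERPUD1 at 0.42, DNAJB9 at 0.35, SDF2L1 at -0.69 and PDIA4 at -0.71 as deposited. Whether the cells had an ER stress response was not tested. HSPA5 shares 18.7% of its sequence with other genes and HSP90B1 15.2%, mostly with the pseudogene HSP90B2P.

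The lectin chaperones, which bind glycoproteins through the trimmed glycan, went opposite ways. CANX, the membrane-bound calnexin, was at 354 FPKM in HKR3, 281 FPKM in siTERT-labelled and 252 FPKM in control cells, a difference of 0.49. CALR, its soluble relative calreticulin, was at 511 FPKM in HKR3, 607 FPKM in siTERT-labelled and 708 FPKM in control cells, a difference of -0.47. The level of CANX over CALR was therefore 0.693 in HKR3 cells, 0.463 in siTERT-labelled cells and 0.356 in control cells, and the library labelled siTERT lay between the other libraries for both genes. SDF2L1, a soluble partner of the co-chaperone DNAJB11, was at 50.1 FPKM in HKR3, 65.7 FPKM in siTERT-labelled and 81.7 FPKM in control cells. Its difference of -0.69 was lower than that of all but 8.6% of genes tested, and its order over the libraries was that of CALR. DNAJB11, which hands substrates to BiP, was at 121 FPKM in HKR3, 100.03 FPKM in siTERT-labelled and 93.8 FPKM in control cells, a difference of 0.37, so SDF2L1 over DNAJB11 was 0.413 in HKR3, 0.657 in siTERT-labelled and 0.871 in control cells. DNAJB9, a co-chaperone that restrains IRE1, was at 26.9 FPKM in HKR3, 25.5 FPKM in siTERT-labelled and 20.9 FPKM in control cells, and DNAJC3, another BiP partner, was at 11.3 FPKM in HKR3, 11.4 FPKM in siTERT-labelled and 9.91 FPKM in control cells. Both were lowest in the control, with HKR3 minus control differences of 0.35 and 0.18.

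All 5 disulfide genes were below the control in the HKR3 library under either scaling, with a median of -0.22 as deposited and -0.06 at the same FPKM sum. Of all genes tested, 51.4% were below 0 as deposited and 41.1% at the same FPKM sum. The 650 genes tested with a mean from 100 to 300 FPKM had a median of -0.25 as deposited, close to that of the disulfide genes. PDIA4, a disulfide isomerase with an extra thioredoxin-like domain, was at 96.7 FPKM in HKR3, 137 FPKM in siTERT-labelled and 159 FPKM in control cells. Its difference of -0.71, or -0.56 at the same FPKM sum, was the lowest of the 47, and the library labelled siTERT lay between. P4HB, the isomerase that gave the family its name, was at 507 FPKM in HKR3, 622 FPKM in siTERT-labelled and 589.7 FPKM in control cells. PDIA3, which works with calnexin and calreticulin, was at 139 FPKM in HKR3, 143 FPKM in siTERT-labelled and 156 FPKM in control cells, and PDIA6 was at 154 FPKM in HKR3, 180.5 FPKM in siTERT-labelled and 182 FPKM in control cells. ERO1A, the oxidase that recharges P4HB, was at 14.7 FPKM in HKR3, 17.6 FPKM in siTERT-labelled and 16.7 FPKM in control cells. Apart from PDIA4 their differences lay between -0.25 and -0.17. PDIA3 shares 21.7% of its sequence with other genes, mostly the pseudogene PDIA3P1.

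Of the stress sensors in the list, ERN1 stood apart from ATF6. EIF2AK3, a sensor outside the list, was also higher in the HKR3 library than in the other libraries. Its HKR3 minus control difference was 0.91 as deposited and 1.09, past 2-fold, at the same FPKM sum. ERN1 encodes IRE1, a kinase and ribonuclease that splices XBP1 messenger RNA when unfolded protein accumulates. ERN1 was at 7.39 FPKM in HKR3, 3.11 FPKM in siTERT-labelled and 3.06 FPKM in control cells, so the HKR3 value lay above the other values, which differed by 0.02 on the log2 scale. The log2 difference of HKR3 minus control was 1.05, above that of 95.1% of genes tested. With its shortest coding transcript, of 2068 bases, the estimate was 173 fragments in HKR3, 74 in siTERT-labelled and 66 in control cells. From these the HKR3 level was 2.42 times the control, with a 95% exact binomial interval from 1.81 to 3.27 that covers counting error only. ERN1 is weakly expressed, and the difference was 0.62 with a pseudocount of 5 FPKM, under the 2-fold line. XBP1, the transcription factor made from the spliced message, was at 503 FPKM in HKR3, 535 FPKM in siTERT-labelled and 507 FPKM in control cells; gene-level FPKM does not separate its spliced from its unspliced form. ATF6, the sensor that is cut in the Golgi to release a transcription factor, was at 4.65 FPKM in HKR3, 3.42 FPKM in siTERT-labelled and 4.27 FPKM in control cells. Its 95% counting intervals against the control were 0.940 to 1.26 for the HKR3 library and 0.683 to 0.941 for the library labelled siTERT.

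Of the genes of ER-associated degradation in the list, HERPUD1 lay above the control under either scaling, and SEL1L and SYVN1 changed sign between scalings. The HERPUD1 difference exceeded that of 78.2% of all genes tested. HERPUD1, an adaptor of the degradation complex and a target of the unfolded protein response, was at 65.3 FPKM in HKR3, 47.9 FPKM in siTERT-labelled and 48.4 FPKM in control cells, a difference of 0.42 in HKR3 minus control. SYVN1, the ubiquitin ligase also called HRD1, was at 19.6 FPKM in HKR3, 21.3 FPKM in siTERT-labelled and 21.7 FPKM in control cells, and SEL1L, which holds that ligase together, was at 11.8 FPKM in HKR3, 14.1 FPKM in siTERT-labelled and 12.5 FPKM in control cells. For the 8 genes of the list under 25 FPKM in the control, counting error alone is wide. SEC63, DNAJC3, ERO1A, SEL1L and SYVN1 had 95% counting intervals that include a ratio of 1 in both comparisons with the control. For DNAJB9 the intervals were 1.16 to 1.44 for the HKR3 library and 1.10 to 1.36 for the library labelled siTERT.

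Many genes of the unfolded protein response are driven through ER stress response elements, to which ATF6, together with the CCAAT-binding factor NF-Y, and XBP1 bind. RefSeq promoter windows (250 bases before to 50 after an annotated start, GRCh38.p14) were at hand for 42 of the 47 genes, in 54 windows. They were searched on both strands for element I, which is CCAAT and CCACG with 9 bases of any kind between them, and element II, which is ATTGG and CCACG with 1 base of any kind between them. ATTGG is CCAAT read on the opposite strand, so a site of one could overlap a site of the other. Element I was found in 6 of the 42 genes and element II in 3, so 9 of 42, or 21.4%, held either and none held both. Among all 35116 windows 0.0769% held element I and 0.0541% element II, and of all 27305 genes with a window 0.161% held either. The stretches with an element are shown for the 9 genes that hold one, and 33 genes with a window hold none. The list was chosen by function and includes genes of the unfolded protein response, so a share above that of all genes is no separate finding. They are written 5′ to 3′ in the direction of the gene, with the fixed letters of the element in capitals; a copy on the opposite strand reads as CGTGG and ATTGG, or as CGTGG and CCAAT for element II.
HSPA5: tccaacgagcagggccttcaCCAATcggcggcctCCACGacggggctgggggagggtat
HSP90B1: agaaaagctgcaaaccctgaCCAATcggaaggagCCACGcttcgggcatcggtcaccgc
HSP90B1: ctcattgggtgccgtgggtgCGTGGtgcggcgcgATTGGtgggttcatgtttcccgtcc
CALR: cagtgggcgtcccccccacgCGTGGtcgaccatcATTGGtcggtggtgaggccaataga
CANX: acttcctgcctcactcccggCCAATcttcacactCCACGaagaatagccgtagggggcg
PDIA6: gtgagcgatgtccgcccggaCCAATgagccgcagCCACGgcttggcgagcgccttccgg
XBP1: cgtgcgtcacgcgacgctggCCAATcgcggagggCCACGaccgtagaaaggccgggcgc
HERPUD1: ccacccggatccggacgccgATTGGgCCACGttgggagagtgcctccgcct
SDF2L1: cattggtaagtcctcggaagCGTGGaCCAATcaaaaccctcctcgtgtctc
HYOU1: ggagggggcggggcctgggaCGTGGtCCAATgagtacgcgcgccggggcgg
HYOU1: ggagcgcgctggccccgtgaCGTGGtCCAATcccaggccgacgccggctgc

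By rule, only elements that lie upstream of an annotated start together with the 20 bases after them are printed. Each is placed in the window where it lies farthest upstream. The element of HSPA5 covers bases 66 to 48 before the start, in the stretch chr9:125241371-125241429 on the minus strand. HSP90B1 has a pair, at 194 to 176 and, on the opposite strand, 89 to 71 bases before the start, in chr12:103930196-103930254 on the plus strand, and chr12:103930301-103930359 on the plus strand. The CALR element is on the opposite strand at 225 to 207 bases, in chr19:12938364-12938422 on the plus strand. CANX, PDIA6 and XBP1 have several annotated starts, and their elements lie 189 to 171, 86 to 68 and 52 to 34 bases before one of them, in chr5:179698758-179698816 on the plus strand, chr2:10812833-10812891 on the minus strand, and chr22:28800583-28800641 on the minus strand. Of element II, HERPUD1 has a copy at 117 to 107 bases in chr16:56932005-56932055 on the plus strand, and SDF2L1 one on the opposite strand at 188 to 178 bases in chr22:21642094-21642144 on the plus strand. HYOU1 has a pair on the opposite strand, at 185 to 175 and 79 to 69 bases, in chr11:119057360-119057410 on the minus strand, and chr11:119057254-119057304 on the minus strand. A match of letters is a description and no evidence of binding in these cells.

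The 9 genes with an element did not share a direction. In HKR3 minus control 4 were above 0 and 5 below, with a median of -0.01 and a range from -0.69 for SDF2L1 to 0.49 for CANX, and at the same FPKM sum 6 were above 0 and 3 below, with a median of 0.14. The 33 genes with a window and no element had a median of -0.08, with 13 above 0 and 20 below, and at the same FPKM sum a median of 0.07, with 19 above 0 and 14 below. In the library labelled siTERT minus control 2 of the 9 were above 0 and 7 below, with a median of -0.07, beside -0.0097 for the 33; at the same FPKM sum 4 of the 9 were above 0. Outside the list, 19 tested genes held an element, with a median of -0.02 in HKR3 minus control, or 0.12 at the same FPKM sum. Among these FICD, the enzyme that modifies BiP, was at 4.08 FPKM in HKR3 cells against 1.30 FPKM in control cells, and SERP1, a small protein of the translocon, was at 119 FPKM in HKR3 cells against 98.99 FPKM in control cells; both were named after their values were seen.

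**Figure D4:**
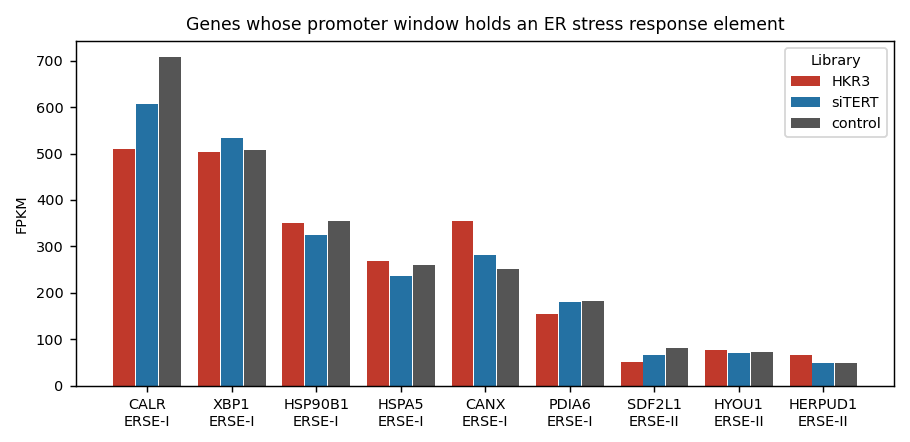
FPKM (y axis, from 0) of the 9 genes whose promoter window holds an ER stress response element of type I or II, with bars for the HKR3 library (red), the library labelled siTERT (blue) and the control (grey), 1 library each. CANX and HERPUD1 are highest in the HKR3 library, CALR, PDIA6 and SDF2L1 are lowest there, and HSPA5, HSP90B1, HYOU1 and XBP1 vary less.

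In the library labelled siTERT, where TERT itself was not lower, the machinery was closer to the control than in HKR3 cells. No gene of the 47 was 1.5-fold or 2-fold different, against 1.69% of all genes tested higher and 1.24% lower at 1.5-fold, and 0.282% higher and 0.2% lower at 2-fold. As deposited all 47 lay within 1.25-fold of the control, beside 86.4% of all genes. At the same FPKM sum DNAJB9, with a difference of 0.324, was just past that line. The median difference was -0.02, beside -0.01 over all genes, with 20 above 0 and 27 below. At the same FPKM sum 28 were above 0. DNAJB9 was highest among them, at 25.5 FPKM in siTERT-labelled cells against 20.9 FPKM in control cells, a difference of 0.28. DNAJC3 followed with 0.18, then SRP19, SEC62 and SEL1L with 0.16, 0.16 and 0.16. At the low end, SDF2L1 was at 65.7 FPKM in siTERT-labelled cells against 81.7 FPKM in control cells, a difference of -0.31 that was below that of all but 7.4% of genes tested. RPN2 had a difference of -0.26, ATF6 of -0.25, CALR of -0.22 and PDIA4 of -0.21. In HKR3 minus control, which uses the same control library, these genes had differences of 0.35, 0.18, 0.46, 0.63 and, for SEL1L, -0.08 as deposited or 0.07 at the same FPKM sum at the high end and -0.69, -0.37, 0.10, -0.47 and -0.71 at the low end, in the same order.

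The direct comparison of the HKR3 library with the library labelled siTERT does not use the control. It uses the same HKR3 library as HKR3 minus control, so these comparisons are not independent. ERN1 was again the 1 gene of 47 at least 2-fold higher, with a difference of 1.03, against 4.11% of all genes tested, and 0 were 2-fold lower, against 1.38%. It was also the 1 gene at least 1.5-fold higher, against 12.9%, and 0 were 1.5-fold lower, against 9.71%. The median of the list was -0.09, beside -0.0069 over all genes, and it was 0.03 at the same FPKM sum. After ERN1 the highest were SPCS2 at 0.51, SEC62 at 0.47, SSR3 at 0.45 and HERPUD1 at 0.44. The lowest were PDIA4 at -0.50, SPCS3 at -0.43, SSR4 at -0.39, SDF2L1 at -0.39 and SRP9 at -0.38. The SRP, TRAP and signal peptidase subunits that lay on opposite sides of the control in HKR3 cells also lay on opposite sides of the library labelled siTERT. With all 47 genes of that library within 1.25-fold of the control as deposited, this likeness adds no separate support. On the deposited scale the HKR3 library, which has the smallest FPKM sum, was the lowest of the 3 for 27 of the 47 genes. It was the highest for 17. Over all genes tested it was the lowest for 44.8% and the highest for 42.8%. This order was not counted at the same FPKM sum. At that sum 27 of the 47 genes were above 0 in HKR3 minus control, beside 58.9% of all genes. In HKR3 minus siTERT 26 were above 0, beside 58.0%.

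Within the list, level and difference were negatively related, though not in every band of level. Across the 47 genes Spearman's rho between mean level and the HKR3 minus control difference was -0.50, and it was -0.18 across all 10974 genes tested. The genes share their libraries and are not independent. Among the 6 genes with a mean from 10 to 30 FPKM the median difference was 0.03, beside 0.02 for 3353 genes, and only ERN1 and ATF6 lie below 10 FPKM. Among the 15 genes with a mean from 30 to 100 FPKM the median difference was 0.22, beside -0.14 for the 2073 genes tested in that band. Among the 18 from 100 to 300 FPKM it was -0.23, beside -0.25 for 650 genes, and among the 6 above 300 FPKM it was -0.18, beside -0.33 for 273 genes. With the length of the longest coding transcript rho was 0.42 across the 47 and 0.22 across the 10936 genes with one. Abundance and length move with the subunit contrasts: SRP9 and SRP14, whose longest coding transcripts have 1596 and 1077 bases, are shorter and more abundant than SRP54, SRP68 and SRP72, with 2327, 2649 and 4136 bases, and SSR4, with 1671, is shorter and more abundant than SSR3, with 3716. SPCS3, with 4571 bases, is longer than SPCS2, with 2711. The part of abundance or length in those contrasts, and in the medians of the oligosaccharyltransferase and disulfide genes, was not tested.

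A further 157 genes of the pathway, in 9 lists, were taken by role, and 153 were tested. In HKR3 minus control 1 of them (0.654%) reached 2-fold higher and 3 (1.96%) reached 2-fold lower, against 5.52% and 2.52% of all genes tested; at the same FPKM sum these counts were 4 and 3, against 991 and 208 of all genes. Their median was -0.09 as deposited and 0.05 at the same FPKM sum. In the GET pathway, which inserts proteins anchored by their tail, CAMLG, a receptor subunit in the ER membrane, was at 29.1 FPKM in HKR3, 15.4 FPKM in siTERT-labelled and 10.4 FPKM in control cells, a difference of 1.40. Its partner GET1 was at 17.4 FPKM in HKR3, 23.2 FPKM in siTERT-labelled and 25.5 FPKM in control cells, so the receptor pair lay on opposite sides of the control. The cytosolic factors GET3 and GET4 had differences of 0.39 and 0.47, and 3 of 7 genes of this pathway were above 0.

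Of 28 tested genes of the remaining oligosaccharyltransferase subunits and glycan precursor synthesis, 20 (71.4%) were below 0 in HKR3 minus control, beside 51.4% of all genes tested. As deposited 7 of 28 reached 1.5-fold lower and 1 of 28 reached 1.5-fold higher, against 12.7% and 15.3% of all genes. At the same FPKM sum 17 were below 0, beside 41.1% of all genes, and 4 reached 1.5-fold lower, against 8.65%; the median was -0.29 as deposited and -0.15 at that sum. DPM3, which tethers the enzyme that makes dolichol-phosphate mannose, was at 30.4 FPKM in HKR3, 56.8 FPKM in siTERT-labelled and 77.96 FPKM in control cells, a difference of -1.33. The small oligosaccharyltransferase subunits TMEM258 and OST4 were at 275 FPKM in HKR3 cells against 460.4 FPKM in control cells for TMEM258, and at 154 FPKM in HKR3 cells against 259 FPKM in control cells for OST4. ALG6, a glucosyltransferase of the precursor, was at 4.01 FPKM in HKR3 cells against 8.09 FPKM in control cells. Of 12 genes of trimming and glycan-dependent quality control, 10 were below 0 as deposited and 8 at the same FPKM sum. Of these 12, 2 (16.7%) were at least 1.5-fold lower under either scaling. Of all genes tested, 12.7% were 1.5-fold lower as deposited and 8.65% at the same FPKM sum. MOGS, the glucosidase that makes the first cut on the transferred glycan, was at 21.8 FPKM in HKR3, 31.9 FPKM in siTERT-labelled and 54.3 FPKM in control cells, a difference of -1.28. MAN1B1, a mannosidase of the early secretory pathway, was at 23.9 FPKM in HKR3 cells against 42.4 FPKM in control cells. UGGT1, which adds glucose back to misfolded glycoproteins, had a difference of -0.58, and MLEC, a lectin of early glycans, of -0.45.

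Of 20 tested genes of ER-associated degradation outside the 47, 14 (70.0%) were above 0 in HKR3 minus control, beside 48.6% of all genes, and 2 (10.0%) reached 1.5-fold higher, against 15.3%; the median was 0.23. At the same FPKM sum 15 were above 0, beside 58.9% of all genes, and 6 reached 1.5-fold higher, against 22.1%. SELENOK and SELENOS, selenoproteins that bind the p97 machinery at the ER membrane, were at 46.1 FPKM in HKR3 cells against 24.4 FPKM in control cells for SELENOK, and at 83.2 FPKM in HKR3 cells against 46.95 FPKM in control cells for SELENOS. HERPUD2, a relative of HERPUD1, had a difference of 0.53 and FAM8A1, an HRD1 cofactor, of -0.53. Of 22 further sensors, targets and co-chaperones, 3 (13.6%) reached 1.5-fold higher and 4 (18.2%) reached 1.5-fold lower as deposited. These shares were near the 15.3% and 12.7% of all genes. At the same FPKM sum the counts were 4 and 2, against 22.1% and 8.65% of all genes. EIF2AK3, encoding PERK, the third sensor of the unfolded protein response, was at 14.6 FPKM in HKR3, 8.52 FPKM in siTERT-labelled and 7.34 FPKM in control cells, a difference of 0.91. CREB3L3, a liver-enriched membrane-bound transcription factor cut in the same way as ATF6, was at 79.8 FPKM in HKR3, 54.6 FPKM in siTERT-labelled and 41.3 FPKM in control cells, a difference of 0.93. SDF2, the relative of SDF2L1, was at 22.3 FPKM in HKR3, 39.5 FPKM in siTERT-labelled and 45.2 FPKM in control cells, a difference of -0.98 on the same side as SDF2L1, and FKBP7, an ER prolyl isomerase, was at 4.04 FPKM in HKR3 cells against 10.4 FPKM in control cells.

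Outside the 47 genes, 0 of the 153 were 2-fold different in the library labelled siTERT and 3 (1.96%) reached 1.5-fold lower, near the 1.24% of all genes; the median was -0.02. These 3 were MOGS, at -0.75, ATF6B, the paralog of ATF6, at -0.75, and UGGT2, the paralog of UGGT1, at -0.59; the last pair was named after its values were seen. ATF6B was at 15.1 FPKM in HKR3, 13.6 FPKM in siTERT-labelled and 23.7 FPKM in control cells, so the control was the highest of the 3. Of its sequence 16.9% occurs in other genes, as does 7.4% of that of CAMLG.

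**Figure D5:**
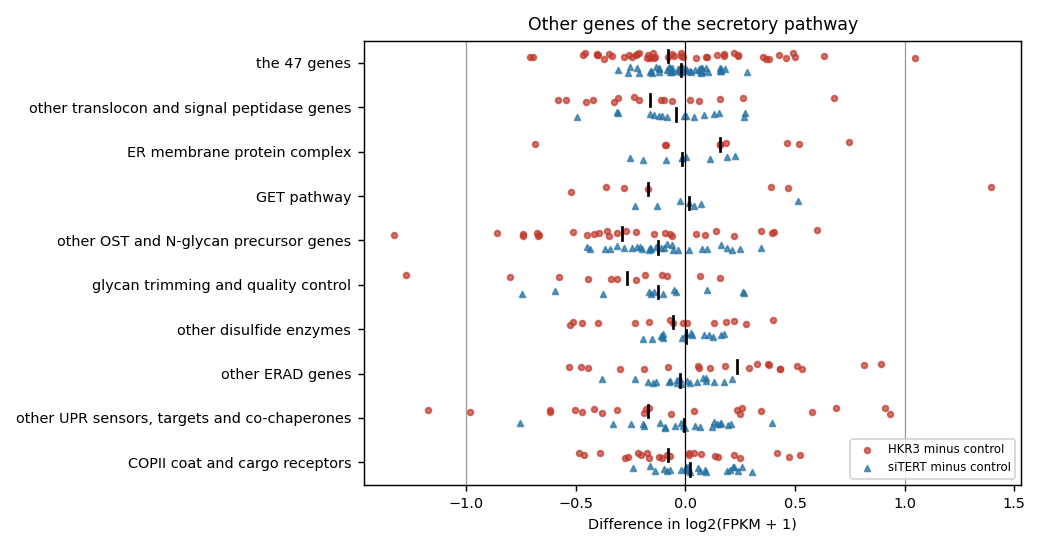
Difference in log2(FPKM + 1) (x axis) of the 47 genes and of 153 other tested genes in 9 lists of the secretory pathway, for HKR3 minus control (red circles) and siTERT minus control (blue triangles). Black bars mark medians and grey lines 2-fold; in the lists drawn below the 47 genes, CAMLG, at 1.40, is the 1 red point past the upper line, and DPM3, MOGS and FKBP7 are the 3 past the lower line.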

How the data were processed

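Messenger RNA libraries (stranded TruSeq kit) came from TRIzol extracts, per the labels' protocols. The deposited table has FPKM values computed by the authors, 1 for each gene in each library. STAR 2.5.0, Cufflinks and Cuffdiff 2.2.1 with the hg19 build are named, per the submitters' processing notes; the sources used here give no settings, filters or use of strand in counting. A gene table gave a symbol to 19119 of 19869 identifiers; 4 short noncoding RNAs were left out and 10 entries that share a symbol were summed.

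Differences are of log2(FPKM + 1), a pseudocount of 1 FPKM that understates changes of weak genes, over the 10974 genes whose mean reached 1 FPKM. With 1 library per group, lines of 2-fold and 1.5-fold stand in for a test. The 47 genes, the role groups, the other lists and the rules were chosen with earlier results of these data known. Values of all 47 genes are given, and of each other list the 4 with the largest absolute HKR3 minus control difference are named; FICD, SERP1, ATF6B and UGGT2 fall outside this rule. Fragments were estimated from 67 to 87 genes per library with a single GENCODE 29 transcript of at least 1000 bases. In these, FPKM times length in kilobases lay from 0.04 to 0.12, and its median was taken as the worth of 1 fragment. That fixed band bounds the depth that could be found, and the fragment counts and counting intervals rest on it. If FPKM was scaled between libraries, the estimates are scaled sizes. Shared sequence was counted in units of 31 bases over GENCODE 29 transcripts. Promoter windows are RefSeq's for GRCh38.p14, not the build of the authors, and no coordinate was joined to the table. The calculation was tested on simulated data. Python 3.11.15, pandas 2.3.3 and scipy 1.17.1 were used.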

Additional observations from a re-analysis of the deposited data

How the results depend on the processing

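Pseudocounts of 0.1 and 5 FPKM, no filter, a mean of at least 5 FPKM, an equal FPKM sum and centring on the median of all genes were tried. No gene past 1.5-fold changed sign. With a pseudocount of 5 FPKM, 0 genes were 2-fold higher and 1 was 1.5-fold higher in HKR3 minus control, and 0 were 2-fold higher in HKR3 minus siTERT. With a mean of at least 5 FPKM, which removes ERN1 and ATF6, the same counts were 0, 1 and 0, and 0 genes were 1.5-fold higher in HKR3 minus siTERT. At an equal FPKM sum, 5 genes were 1.5-fold higher and 0 lower in HKR3 minus control, against 22.1% and 8.65% of all genes. The median of that comparison moved to 0.067. In HKR3 minus siTERT 2 were 1.5-fold higher, against 18.3% of all genes, and the median moved to 0.025. At that sum 16 of 24 medians of role groups moved by over 0.1. The other settings left each count of the 47 genes within 1.5 times and each median within 0.1. No paired analysis was possible because each group holds 1 library. Counting error limits the genes under 25 FPKM, and also genes with few estimated fragments such as SRP54 and SRP68. Intervals were computed only for genes under 25 FPKM in the control.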

Other observations

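The coat and receptors that carry cargo out of the ER are the next step of the pathway. Of 24 genes of the COPII coat and of cargo receptors, 0 reached 1.5-fold in HKR3 minus control, against 15.3% of all genes higher and 12.7% lower, and 18 of 24 lay within 1.25-fold, beside 45.4% of all genes. At the same FPKM sum 2 reached 1.5-fold higher, against 22.1% of all genes. The median was -0.08 as deposited and 0.08 at that sum. The cargo adaptors of the coat went both ways: SEC24A was at 24.4 FPKM in HKR3 cells against 17.4 FPKM in control cells, SEC24B at 11.6 FPKM in HKR3 cells against 7.74 FPKM in control cells and SEC24C at 25.4 FPKM in HKR3 cells against 35.3 FPKM in control cells. KDELR3, a receptor that returns chaperones to the ER, was at 27.9 FPKM in HKR3, 45.2 FPKM in siTERT-labelled and 39.5 FPKM in control cells, a difference of -0.49.

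The ER membrane protein complex, which inserts transmembrane segments, had subunits on both sides of the control. EMC1, its large lumenal subunit, was at 16.5 FPKM in HKR3 cells against 27.2 FPKM in control cells, a difference of -0.69, while EMC9 was at 18.3 FPKM in HKR3 cells against 10.5 FPKM in control cells, a difference of 0.75. EMC3 and MMGT1 had differences of 0.46 and 0.52. Of 9 tested subunits 6 were above 0 as deposited and 8 at the same FPKM sum. Beside the channel, TRAM1 was at 159 FPKM in HKR3 cells against 99.00 FPKM in control cells, a difference of 0.68, and the catalytic signal peptidase gene SEC11A at 92.5 FPKM in HKR3 cells against 135 FPKM in control cells, a difference of -0.54. NOMO1 and NOMO2 had differences of -0.58 and -0.45, but 88.9% and 92.6% of their sequence is shared, so their split is uncertain. Among disulfide enzymes outside the 47 genes, 0 of 15 reached 1.5-fold, against the same 15.3% and 12.7% of all genes; TXNDC12, PRDX4 and TXNDC5 had differences of -0.52, -0.52 and -0.47, and TXNDC11 of 0.40.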
